A study of Mus musculus with 4 samples.

Results

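Fn1, Tnc, Vcan, Has1, Has2, Cemip, Cd44, Sdc4 and Tnfaip6 make up a group of 9 genes, of 21885 measured, that build, anchor or turn over the provisional matrix of injured tissue. They were selected on their measured levels in spatial sections of infarcted mouse hearts, by section and by the share of cardiomyocyte RNA in a spot, so those levels are described here with no test. Test results of members are given only for contrasts inside the infarct other than those of the choice. Those of other genes of their pathways are also given between zones.

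After an infarct, dead muscle is replaced by granulation tissue, and fibronectin, tenascin C, versican and hyaluronan form a loose, temporary scaffold on which cells move before collagen scar is laid down. Hyaluronan is a long sugar polymer made at the cell membrane by Has enzymes, bound by versican and by the receptor CD44, cross-linked with the help of the TNFAIP6 protein (TSG-6), and cut by proteins such as CEMIP. Syndecan 4, made from Sdc4, is a cell surface proteoglycan that binds fibronectin together with integrins.

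The study followed cardiac fibroblasts after myocardial infarction in Collagen1a1-GFP+ mice, in which a collagen promoter drives GFP in fibroblasts. Mice were 8 to 12 weeks old, and the infarcts came from a lasting tie of the left anterior descending coronary artery. A single frozen transverse section of 10 µm was placed on a Visium array for each of 1 healthy control heart, 1 heart at 3 days post infarction (3 dpi) and 2 hearts at 5 dpi, 1 labelled female and 1 labelled male. The control and the 3 dpi heart were labelled female, and all 4 carried the reporter. Values of the infarcted sections are given in the order 3 dpi, 5 dpi labelled female, 5 dpi labelled male.

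Counts were unique molecular identifiers (UMIs), each standing for 1 captured RNA molecule, in spots that can cover several cells. The sections kept 1146 to 1741 spots with medians of 4967.5 to 6935 UMIs per spot, and 13.3% to 40.1% of UMIs came from mitochondrial genes, most in the control. Y-linked genes gave 704 UMIs in the section labelled female and 1 in that labelled male, so the sex labels do not go with these genes and serve only as names. Levels are in CPM, a gene's UMIs scaled to a common total of non-mitochondrial UMIs, with 95% exact Poisson intervals that cover counting error only. The infarct zone (IZ) was set as connected spots poor in 12 cardiomyocyte genes, and held 882, 1061 and 684 spots. Around it, spots 1 to 2 steps away made up border zone 2 (BZ2) and those 3 to 4 steps away border zone 1 (BZ1), and spots farther out the remote zone (RZ), with 380, 200 and 533 spots. Another 23, 41 and 10 spots, in patches low in muscle RNA of under 10 spots, were placed in no zone. The zones follow muscle RNA, which was 20457, 6719 and 8676 CPM over the 12 genes in the IZ and 98085, 86902 and 81801 CPM in the RZ.

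Upstream sequences of 3 members are shown because their transcripts differed in time or place: Tnc, higher in the IZ at 3 dpi than at 5 dpi, Cemip, the reverse, and Tnfaip6, which was high outside the marked tissue of 1 section. RefSeq start sites on build GRCm38.p6 were found for 7 of the 9 members, with no entry for Fn1 and Has2. The 250 bases before the start are printed 5′ to 3′ on the strand of the gene, at chr4:64047016-64047265 (minus strand) for Tnc, chr7:84086506-84086755 (minus) for Cemip and chr2:52037863-52038112 (plus) for Tnfaip6. Capitals mark matches to the motifs named after them.
Tnc: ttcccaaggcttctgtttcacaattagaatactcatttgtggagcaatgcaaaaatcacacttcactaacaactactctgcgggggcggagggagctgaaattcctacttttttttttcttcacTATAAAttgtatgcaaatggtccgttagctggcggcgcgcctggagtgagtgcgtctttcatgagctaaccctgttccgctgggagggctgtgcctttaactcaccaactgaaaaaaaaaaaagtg
Cemip: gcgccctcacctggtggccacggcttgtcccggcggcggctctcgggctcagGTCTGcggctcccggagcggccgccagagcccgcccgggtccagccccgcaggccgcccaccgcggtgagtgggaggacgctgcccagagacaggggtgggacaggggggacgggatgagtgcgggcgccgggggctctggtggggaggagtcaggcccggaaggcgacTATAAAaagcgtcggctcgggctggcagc
Tnfaip6: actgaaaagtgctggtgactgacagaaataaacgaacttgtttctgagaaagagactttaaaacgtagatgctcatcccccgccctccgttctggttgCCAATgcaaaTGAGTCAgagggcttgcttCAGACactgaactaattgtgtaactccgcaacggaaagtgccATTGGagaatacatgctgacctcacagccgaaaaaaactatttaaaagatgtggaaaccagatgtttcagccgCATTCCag
Both strands were searched for the TATA box (TATAAA), the CCAAT box (CCAAT), AP-1 (TGANTCA), TEAD (GGAATG), SMAD (GTCTG), HIF (ACGTG) and NF-kB, and no 2 matches overlapped in these members. TATAAA lay 29 bases before the start of Cemip and 126 before that of Tnc, and 13% of all 27025 promoters of this length held it. The Tnfaip6 sequence held a single AP-1 match, 142 bases before the start, a motif found in 6.87% of promoters, besides CCAAT, SMAD and TEAD matches found in 34.5%, 42.1% and 12.6%. Of the other 4 members with a sequence, Sdc4 held none of the motifs, Vcan a CCAAT match, Has1 CCAAT and SMAD matches, and Cd44 a HIF match, which 16.6% of promoters held. The NF-kB motif was in none of the 7 and in 1.4% of promoters. A match is a description of the letters and not evidence of binding.

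Fn1, which encodes fibronectin, was low in the control heart and far higher in the infarct. It reached 48.1 CPM (95% interval 41.3 to 55.7) in the control section and 1856, 4575 and 4660 CPM in the IZ. The RZ held 217, 352 and 293 CPM, BZ1 398, 816 and 554 CPM, and BZ2 692, 1334 and 1175 CPM. In every infarcted section the level thus went up from RZ to BZ1, BZ2 and IZ, and even the RZ was 4.51-fold (3.73 to 5.46) to 7.32-fold (6.06 to 8.86) above the control. The IZ was 8.56-fold (7.61 to 9.66), 12.99-fold (11.6 to 14.6) and 15.9-fold (14.8 to 17.1) above the RZ of its own section. Of all Fn1 UMIs, 85.0%, 95.1% and 93.3% lay in the IZ, which held 59.6%, 78.9% and 58.2% of non-mitochondrial UMIs. In spot sums, fewer cells of a type and less RNA per cell cannot be told apart. Markers of other cells moved with these zones: 7 fibroblast genes summed to 11272, 21246 and 19079 CPM in the IZ and 3081, 3678 and 2587 in the RZ, and 8 macrophage genes to 7039, 11145 and 10612 against 1633, 1970 and 1497. The part of cell make-up in the Fn1 levels was not tested. Per 1000 UMIs of the 7 fibroblast genes, Fn1 gave 165, 215 and 244 UMIs in the IZ and 70.4, 95.8 and 113 in the RZ, so the order of the zones held on this scale too. The scale counts RNA of these 7 genes, collagen genes among them, and is not a number of fibroblasts.

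Tnc encodes tenascin C, a large glycoprotein that healthy adult myocardium hardly makes. The control section held 6 Tnc UMIs, 1.60 CPM (0.588 to 3.49). In the IZ it stood at 817 CPM (792 to 842) at 3 dpi, and at 390 and 328 CPM in the 5 dpi sections. The 3 dpi level was above both 5 dpi levels, which were 0.477 times (0.455 to 0.5003) and 0.402 times (0.379 to 0.426) as high. The same held in BZ2, with 383, 138 and 160 CPM, and in the RZ, with 111, 72.8 and 64.5 CPM. At 3 dpi Tnc was not highest where muscle RNA was lowest. Spots whose cardiomyocyte share was 0.1 to 0.25 times the section's 90th percentile held 1029 CPM, against 608 CPM in spots under 0.1 and 87.5 CPM in spots at 0.75 or more. At 5 dpi the spots under 0.1 held 432 and 335 CPM and those at 0.1 to 0.25 held 325 and 381 CPM, an order that differed between the 2 sections. Per 1000 fibroblast UMIs, Tnc was 72.5 in the IZ and 36.2 in the RZ at 3 dpi, whereas at 5 dpi it was 18.3 and 17.2 in the IZ and 19.8 and 24.9 in the RZ.

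Vcan, encoding the hyaluronan-binding proteoglycan versican, varied least between zones among the 7 members with more than 50 IZ UMIs in each section. It stood at 7.22 CPM (4.76 to 10.5) in the control and at 69.3, 86.6 and 73.0 CPM in the IZ. The RZ held 18.1, 44.2 and 42.3 CPM. The IZ was thus 3.84-fold (2.54 to 6.07) above the RZ at 3 dpi and 1.96-fold (1.41 to 2.81) and 1.72-fold (1.38 to 2.17) above it at 5 dpi. Per 1000 fibroblast UMIs the order of the zones turned at 5 dpi, with 4.08 and 3.82 in the IZ and 12.0 and 16.4 in the RZ, while at 3 dpi the values were 6.15 and 5.86.

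The hyaluronan synthases Has1 and Has2 were close to the limit of detection. Neither had a UMI in the control section, which allows up to 0.802 CPM (3 UMIs). Has1 gave 7, 14 and 3 UMIs in the whole IZ of the 3 sections and Has2 gave 21, 33 and 7. Has2 stood at 4.21 CPM (2.60 to 6.43), 4.38 CPM and 1.45 CPM in the IZ, and at 0, 1 and 4 UMIs in the RZ. The Has2 level of the section labelled male lay below those of the other 2 infarcts, and differences between zones were not detectable there at this depth. No tissue order can be read for Has1.

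Cemip, whose product binds hyaluronan and promotes its breakdown, was higher at 5 dpi than at 3 dpi. It had no UMI in the control section and 66 UMIs in the IZ at 3 dpi, 13.2 CPM (10.2 to 16.8). At 5 dpi the IZ held 1013 and 553 UMIs, 135 CPM (126 to 143) and 114 CPM. Both 5 dpi infarcts were therefore above the 3 dpi infarct, by 10.2-fold (7.93 to 13.3) and 8.64-fold (6.69 to 11.3). Against the 3-UMI limit of the control the IZ levels were at least 16.5-fold, 168-fold and 143-fold higher. The RZ held 4, 6 and 6 UMIs, and BZ2 held 5, 13 and 7, so 81.5%, 97.8% and 97.5% of all Cemip UMIs lay in the IZ. Per 1000 fibroblast UMIs it was 1.17 (0.907 to 1.49) in the IZ and 0.977 (0.266 to 2.50) in the RZ at 3 dpi, so the zones could not be told apart on this scale, and 6.33 and 5.99 in the IZ and 1.95 and 0.934 in the RZ at 5 dpi.

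Cd44 encodes the main hyaluronan receptor, carried by leukocytes and by stromal cells. It stood at 12.6 CPM (9.23 to 16.7) in the control and at 124, 137 and 102 CPM in the IZ. The RZ held 15.8, 32.2 and 19.3 CPM, and the 3 dpi value lay within the interval of the control. The IZ was 7.86-fold (5.10 to 12.8), 4.25-fold (2.90 to 6.48) and 5.29-fold (3.93 to 7.27) above the RZ. Unlike Tnc and Cemip, the IZ level of Cd44 did not set the 3 dpi section apart, since the 2 sections at 5 dpi lay on either side of it. Set against 1000 fibroblast UMIs, Cd44 gave 11.02 in the IZ and 5.13 in the RZ at 3 dpi. At 5 dpi the IZ gave 6.45 (6.06 to 6.85) and 5.36 (4.90 to 5.86). The RZ gave 8.77 (5.78 to 12.75) and 7.47 (5.51 to 9.91) there. The intervals overlapped in both 5 dpi sections, so the zones could not be told apart at 5 dpi on this scale.

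Sdc4 was measured at 16.3 CPM (12.5 to 20.9) in the control. The RZ held 15.1, 17.9 and 11.3 CPM, the first 2 values within the interval of the control and the last below it. The IZ held 59.3, 80.0 and 42.0 CPM, 3.94-fold (2.50 to 6.54), 4.47-fold (2.69 to 8.03) and 3.72-fold (2.50 to 5.74) above the RZ. The 5 dpi sections again lay on either side of the 3 dpi section. Per 1000 fibroblast UMIs, Sdc4 gave 5.26 in the IZ and 4.89 in the RZ at 3 dpi. At 5 dpi the IZ gave 3.77 (3.47 to 4.08) and 2.20 (1.91 to 2.52). The RZ gave 4.87 (2.73 to 8.03) and 4.36 (2.90 to 6.30) there. Only in the section labelled male did the RZ interval lie above that of the IZ, and elsewhere the intervals overlapped.

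Tnfaip6, the hyaluronan cross-linker, had 5 UMIs in the control, 1.34 CPM (0.434 to 3.12). Its IZ level was nearly the same in the 3 infarcts, at 18.0, 18.6 and 17.8 CPM, from 90, 140 and 86 UMIs. The RZ held only 6, 3 and 5 UMIs. Relative to 1000 fibroblast UMIs, Tnfaip6 gave 1.60, 0.876 and 0.932 in the IZ and 1.47, 0.974 and 0.779 in the RZ, where the intervals of the zones overlapped in each section.

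**Figure D1:**
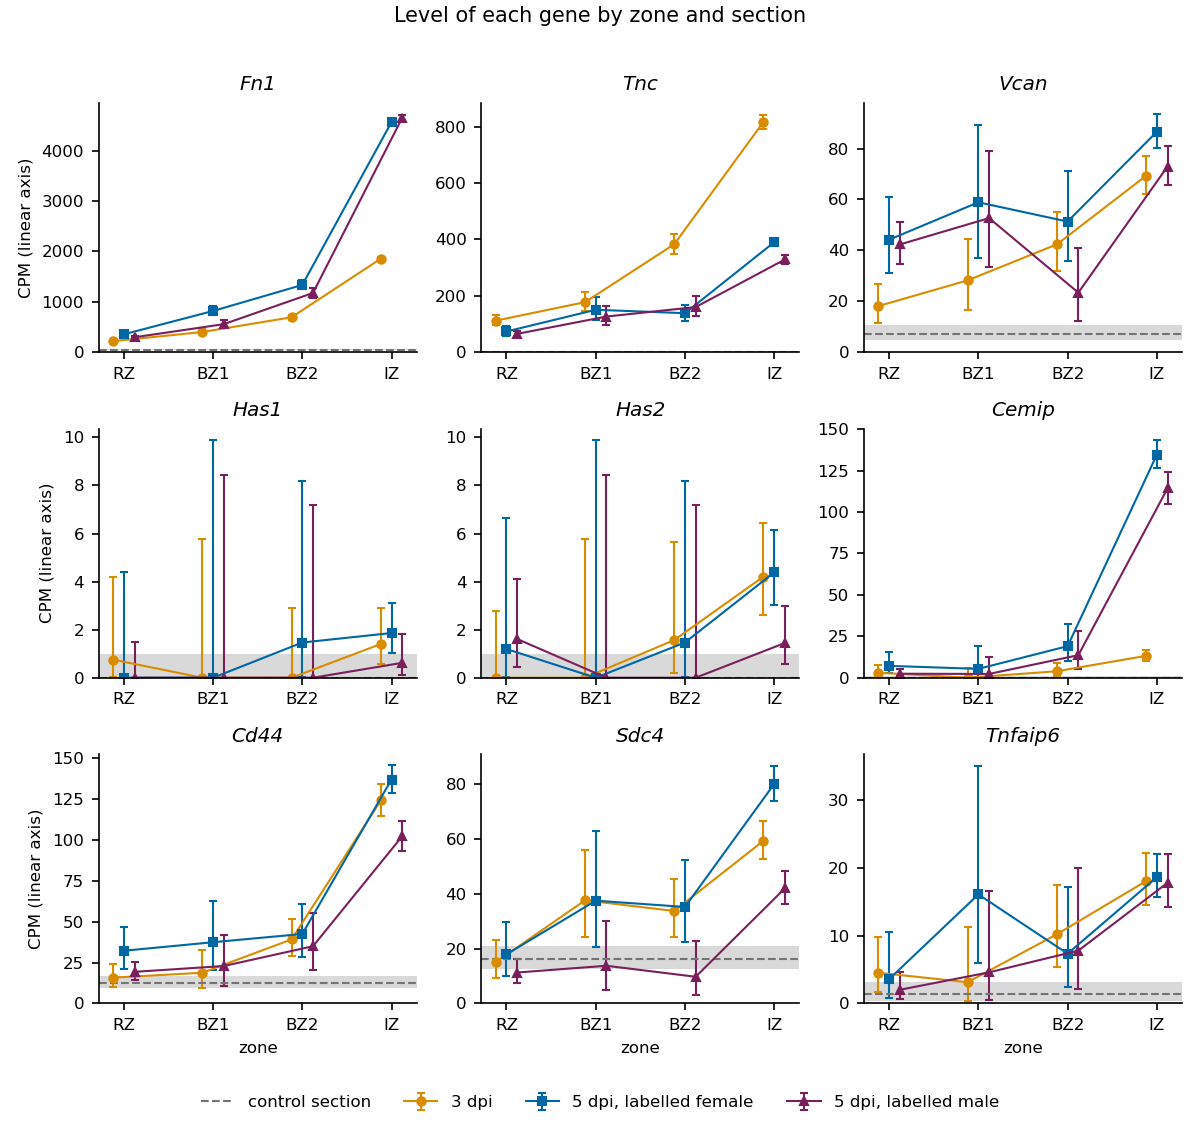
Level of each of the 9 genes in CPM (linear axes from 0) by zone in the 3 infarcted sections, with 95% Poisson intervals; the dashed line and grey band give the whole control section and its interval. Tnc was highest at 3 dpi (817 CPM in the IZ) and Cemip at 5 dpi (135 and 114 CPM), while Has1 and Has2 stayed under 5 CPM.

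For 7 members with enough counts for the test across genes, the lowest IZ level lay above the highest RZ level, in 7 of 7, as for 49.9% of all 9809 genes set side by side. The choice of members used this contrast, so nothing is read from that count. Their median log2 ratio of IZ over RZ was 2.51, and that of 9736 genes with UMIs in all zones compared was 0.48. Of 9809 genes, 1.48% were at least 2-fold higher in both 5 dpi infarcts than in the 3 dpi infarct, among them Fn1 and Cemip. Another 2.46% were at least 2-fold lower in both, among them Tnc. Levels across sections were also part of the choice of members, so nothing is read from these shares either. With 1 heart at 3 dpi, time and heart cannot be told apart.

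Distance from the margin of the infarct separated the members further. The IZ was split at 1 to 2, 3 to 4 and more than 4 spot steps from the nearest spot outside it. For Cd44 the outer class held 90.9, 47.6 and 60.9 CPM and the inner class 169, 156 and 112 CPM. For Cemip the outer class held 15.6, 54.7 and 49.4 CPM and the inner class 5.46, 150 and 129 CPM, the 3 dpi values resting on 31 and 10 UMIs. The 3 infarcts thus shared the direction for Cd44 and not for Cemip. Tnc showed the same split, with 909, 256 and 285 CPM in the outer and 627, 415 and 337 CPM in the inner class. Fn1 was lowest in the outer class in all 3 sections (1628, 3305 and 3914 CPM) and stood at 1929, 4800 and 4789 CPM in the inner class. Sdc4 was also lowest in the outer class at 3 dpi (40.2 CPM) and in the section labelled female (60.8 CPM), and the inner class held 71.5, 85.6 and 45.1 CPM. The summed neutrophil genes were higher in the inner class too, with 104, 83.8 and 76.1 CPM in the outer and 469, 285 and 258 CPM in the inner class. The macrophage genes likewise held 5551, 7103 and 5209 CPM in the outer and 8292, 11582 and 11446 CPM in the inner class, and the part of both lists in these levels was not tested. Because muscle RNA falls along the same line, these profiles share the basis on which the genes were chosen and are a description.

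**Figure D2:**
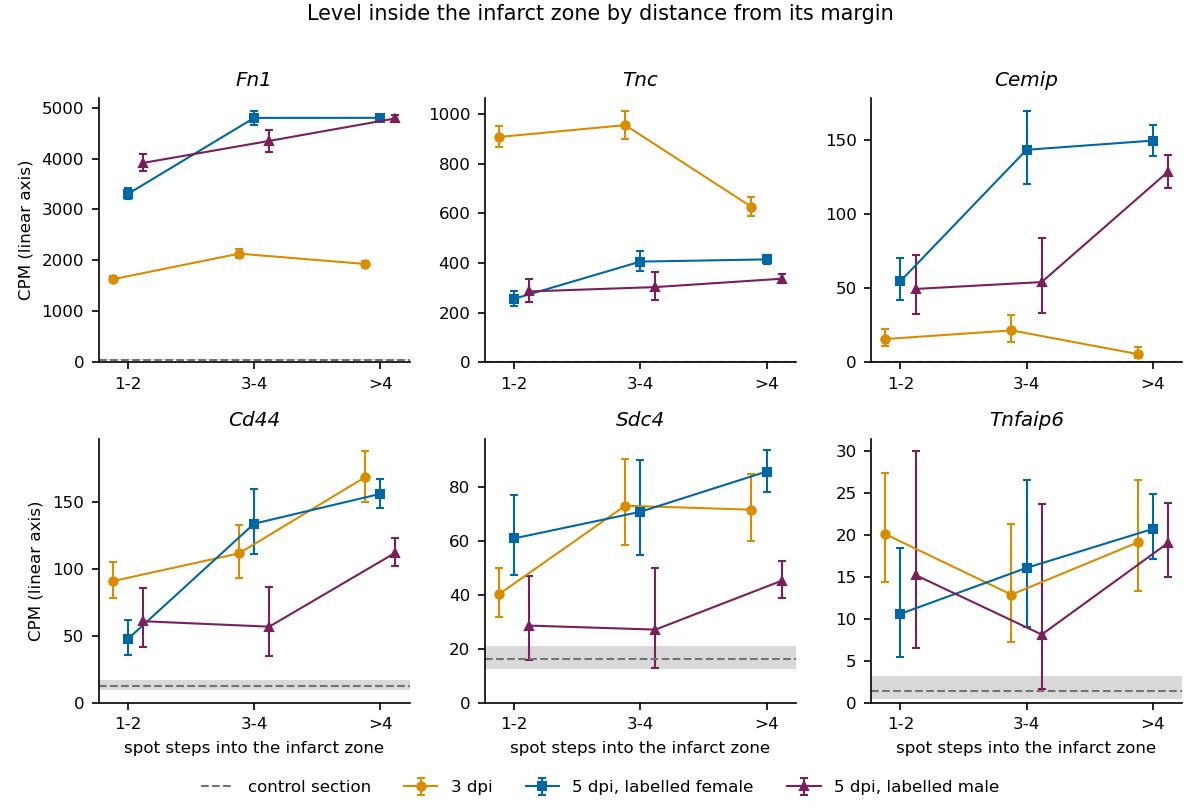
Level in CPM (linear axes from 0) of 6 members inside the IZ by spot steps from its margin, for the 3 infarcted sections with 95% Poisson intervals, and the control section as a dashed line with a grey band. Cd44 was higher more than 4 steps in than at 1 to 2 steps in all 3 sections, whereas Tnc and Cemip were lower there at 3 dpi and higher at 5 dpi.

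The first tested contrast asked in which infarct tissue the members lie. IZ spots of each section were ranked by the balance of the 7 fibroblast genes to the 8 macrophage genes and divided into 3 classes of equal size, and the top class (fibroblast-rich) was compared with the bottom class (macrophage-rich). Fn1 and Tnc were called higher in fibroblast-rich tissue, each in 3 of 3 sections and also with DESeq2, though the call of Fn1 was lost with 2 classes of spots. Cemip and Tnfaip6 were called higher and Cd44 lower, but these 3 calls were lost with DESeq2 and on leaving out 1 section. Tnfaip6 was higher in the 5 dpi sections only. edgeR's quasi-likelihood test across 10753 genes, with the section as a block and Benjamini-Hochberg adjustment, called 13.7% of genes higher and 11.4% lower, and of the 7 members tested it called 4 higher and 1 lower. The 2 kinds of spot differed in muscle RNA, the measure on which the members were chosen, with 12085, 2540 and 2338 CPM over the 12 cardiomyocyte genes in macrophage-rich and 26772, 11401 and 14636 CPM in fibroblast-rich spots. When spots were ranked within 3 classes of muscle RNA, an alternative chosen after seeing the data, these sums were 17659, 5306 and 7876 against 21826, 7711 and 9371 CPM. The same 4 members were then called higher and 0 lower by edgeR's test, with log2 fold changes of 1.38 for Tnc, 0.77 for Cemip, 0.68 for Tnfaip6 and 0.45 for Fn1, and Cd44 stood at -0.14 (adjusted p = 0.401). Tnfaip6 was again not higher at 3 dpi in that ranking, at 20.5 CPM in macrophage-rich and 19.6 CPM in fibroblast-rich spots. Without the section as a block all 5 calls of members were lost, with adjusted p of 0.0906 to 0.814 in edgeR's test. With 3 hearts, p-values measure how consistently the classes differed across these 3 sections, after the level of each section was taken out. The members' median log2 fold change was 0.28, against 0.021 over all genes tested.

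Tnc differed most among the members. Macrophage-rich spots held 493, 263 and 150 CPM and fibroblast-rich spots 1159, 542 and 557 CPM, so the difference had the same direction in 3 of 3 sections. The log2 fold change was 1.39 ± 0.11 (SE), with an adjusted p of 6.63e-09 in edgeR's test. Per 1000 fibroblast UMIs, Tnc still went from 58.0 to 85.4, from 15.2 to 21.9 and from 9.43 to 24.7, so the order held in 3 of 3 sections on this scale too.

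Fn1 differed less than Tnc. Its level was 1771, 4293 and 3963 CPM in macrophage-rich and 2018, 4834 and 5162 CPM in fibroblast-rich spots, a log2 fold change of 0.28 ± 0.06 (edgeR adjusted p = 0.00181), higher in 3 of 3 sections. The call was lost with 2 classes of spots in place of 3 (adjusted p = 0.0831). Per 1000 fibroblast UMIs, however, Fn1 was 208, 248 and 249 in macrophage-rich and 149, 195 and 230 in fibroblast-rich spots. The same fibroblast list ranked the spots, so any gene that rises less than the list falls on this scale. Vcan, Cd44 and Sdc4 fell on it too in 3 of 3 sections.

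Cemip stood at 8.06, 125 and 74.3 CPM in macrophage-rich and at 14.1, 146 and 138 CPM in fibroblast-rich spots, higher in 3 of 3 sections with a log2 fold change of 0.53 ± 0.14 (edgeR adjusted p = 0.00844). Without the section labelled male the adjusted p was 0.219, with DESeq2 it was 0.0593, and with equal weight for each list gene the log2 fold change was -0.027. Tnfaip6 went from 13.6 to 27.8 CPM and from 12.1 to 25.6 CPM at 5 dpi, but was 20.5 and 19.2 CPM at 3 dpi. Its log2 fold change of 0.73 ± 0.21 (edgeR adjusted p = 0.0143) therefore rested on the 5 dpi sections, and the adjusted p was 0.340 without that labelled female and 0.114 without that labelled male, and 0.170 with DESeq2. Vcan, at 0.22 ± 0.11, missed the threshold (edgeR adjusted p = 0.186).

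Cd44 was called lower. It held 168, 159 and 103 CPM in macrophage-rich and 97.0, 117 and 105.1 CPM in fibroblast-rich spots, a log2 fold change of -0.39 ± 0.11 (edgeR adjusted p = 0.0147), lower in 2 of 3 sections. The call was lost without the 3 dpi section (adjusted p = 0.142) and without the 5 dpi section labelled female (0.167), and with DESeq2 (0.119). Sdc4 was lower in 3 of 3 sections, 71.4, 79.3 and 44.1 against 45.7, 71.0 and 40.4 CPM, but its log2 fold change of -0.27 ± 0.12 missed the threshold (edgeR adjusted p = 0.133). Has1 and Has2 had too few UMIs to enter the test.

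The neutrophil list also differed between the 2 kinds of spot, with 387, 340 and 264 CPM in macrophage-rich and 197, 164 and 207 CPM in fibroblast-rich spots. The mesothelial list, of genes of the outer lining of the heart, summed to 12.4, 58.7 and 13.3 CPM in macrophage-rich and 4.51, 159 and 29.6 CPM in fibroblast-rich spots, so that like Tnfaip6 it was higher in fibroblast-rich spots at 5 dpi and not at 3 dpi. With ranking within classes of muscle RNA it held 13.7, 54.7 and 10.1 against 4.90, 148 and 36.5 CPM. Up to 3 of its genes were at 0 in these classes, Muc16 among them in both classes at 3 dpi. The part of either list in the members' differences was not tested. Ranking within classes of distance from the margin, also chosen after seeing the data, left 4 members called higher and 0 lower, with an adjusted p of 0.0718 for Cd44 in edgeR's test.

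**Figure D3:**
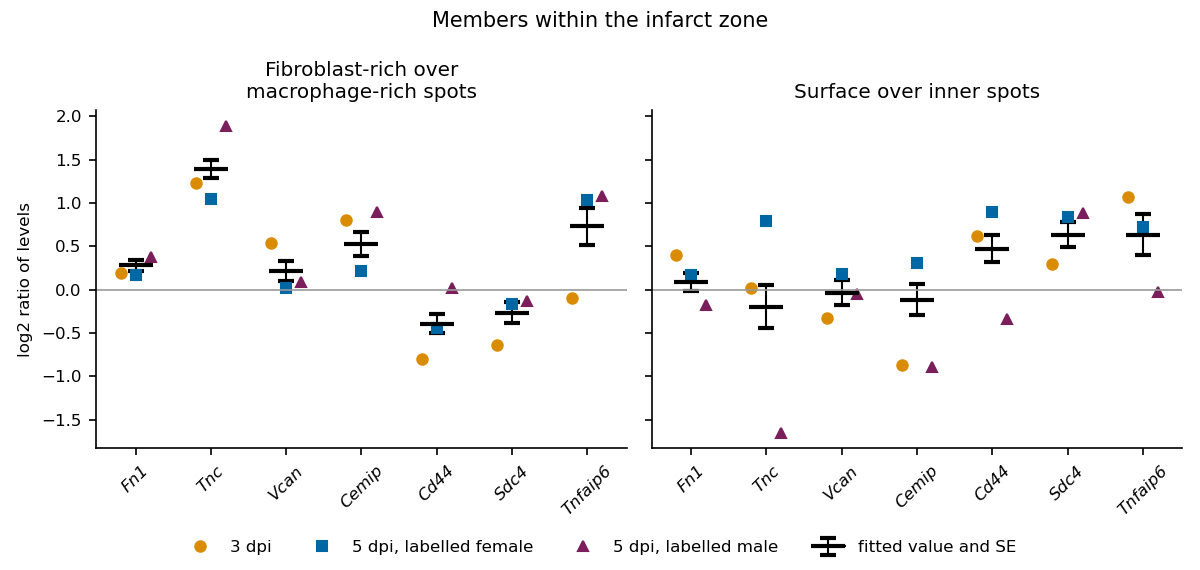
Log2 ratio of levels for 7 members in each infarcted section (points), with the fitted log2 fold change and its SE (black), for fibroblast-rich over macrophage-rich IZ spots (left) and for surface over inner IZ spots (right). Tnc lies above 1 in all 3 sections on the left, and Sdc4 is above 0 in all 3 on the right.

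The second tested contrast set IZ spots at 0 to 1 steps from the outer edge of the tissue (133, 338 and 56 spots) against those at 4 or more steps (606, 477 and 478 spots). Sdc4 was the only member called, at 72.2, 114 and 69.3 CPM near the surface and 58.6, 64.0 and 37.7 CPM further in, higher in 3 of 3 sections. The log2 fold change was 0.64 ± 0.15 (edgeR adjusted p = 0.0230), in a test that called 1.27% of 10920 genes higher and 0.952% lower. It was lost without the 5 dpi section labelled female (adjusted p = 0.588) and once spots with a UMI of the mesothelial list were left out (log2 fold change 0.29, adjusted p = 0.511). It was also lost with DESeq2 (adjusted p = 0.234), and in edgeR's test without the block (0.636) and with all tissue edges counted as surface (0.974). The mesothelial list summed to 35.2, 286 and 112 CPM near the surface and 4.91, 15.9 and 8.63 CPM inside, with Muc16 at 0 near the surface at 3 dpi. The neutrophil list was also higher near the surface in 3 of 3 sections, with 707, 393 and 277 CPM against 124, 127 and 214 CPM inside, and Cxcr2 at 0 near the surface in the section labelled male. The macrophage list held 10007, 11229 and 14225 against 6630, 11012 and 9641 CPM. Over the tiles described further on, Sdc4 correlated at 0.38 with the neutrophil and 0.084 with the mesothelial list, and Cd44 at 0.63 and 0.12. The part of the neutrophil and macrophage lists in the surface levels was not tested.

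Cd44 and Tnfaip6 were higher near the surface in 2 of 3 sections, but neither passed the threshold in the 3 sections (log2 fold change 0.47 ± 0.16 and edgeR adjusted p = 0.156, and 0.64 ± 0.24 and 0.222). Cd44 held 169, 187 and 81.4 CPM near the surface and 109, 101 and 103 CPM inside, so that the section labelled male, with 56 surface spots, went against the other 2, and without it the adjusted p was 0.00116. Tnc differed in direction between the 5 dpi hearts, with 530 over 307 CPM in the section labelled female and 124 under 389 CPM in that labelled male, and its fitted change was -0.19 ± 0.25 (edgeR adjusted p = 0.806). Fn1, Vcan and Cemip had fitted changes between -0.12 and 0.088, with adjusted p of 0.791 to 0.991. Has1 and Has2 again did not pass the filter on low counts.

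The genes around the members were followed through a list of 60 genes of hyaluronan metabolism, matrix receptors, versican proteases and matrix cross-linking, 36 of which had enough counts to be tested between IZ and RZ. edgeR's quasi-likelihood test called 19 of them higher and 9 lower in the IZ, against 28.2% and 25.8% of all 9811 genes. The zones are set by muscle RNA, as the choice of the members was. The list's median log2 fold change was 0.65, and that of all genes tested 0.083. The scaling of the test (TMM) set log2 changes 0.39 below the ratios of CPM.

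The receptors of fibronectin and tenascin were the group with the highest count, with 8 of 9 tested members called higher and 1 lower. Sdc1, a syndecan like Sdc4, went from 11.3, 28.7 and 14.9 CPM in the RZ to 98.4, 150 and 131 CPM in the IZ (log2 fold change 2.49 ± 0.21, edgeR adjusted p = 1.8e-09). Itgb3, the beta subunit of a fibronectin- and vitronectin-binding integrin, went from 5.27, 2.39 and 2.42 to 24.0, 18.3 and 19.8 CPM and was called higher (adjusted p = 2.61e-05), but the RZ values rest on 7, 2 and 6 UMIs, so the size of the change is uncertain. Both were higher in 3 of 3 sections.

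Of the 7 tested genes that make the sugar nucleotides of hyaluronan, 5 were higher and 1 lower. The lower gene was Ugp2, which makes UDP-glucose, a precursor also of glycogen (-1.61 ± 0.15, edgeR adjusted p = 1.26e-08), at 152, 171 and 166 CPM in the RZ and 86.8, 62.2 and 61.2 CPM in the IZ. Hyaluronan receptors split in the same way, with 3 of 4 higher and Lyve1, the receptor of lymphatic vessels and some resident macrophages, lower (-2.50 ± 0.32, adjusted p = 1.28e-06), at 15.1, 21.5 and 10.5 CPM against 4.21, 3.59 and 2.69 CPM. Neither of the 2 tested genes of hyaluronan breakdown besides Cemip passed the threshold.

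Acan, encoding aggrecan, a hyaluronan-binding proteoglycan best known from cartilage, was called higher in the IZ (edgeR adjusted p = 7.61e-07). It stood at 2.20, 30.7 and 17.8 CPM in the IZ and had 0, 1 and 1 UMIs in the RZ. The RZ counts lay under the limit of 3 UMIs, so the fitted log2 fold change of 4.62 ± 0.58 is no measured size. Among proteases that cut versican, Adamts4 was called higher (edgeR adjusted p = 0.00173) on 1, 4 and 4 UMIs in the RZ and 56, 75 and 47 in the IZ, and as the RZ of the 3 dpi section lay under the limit of 3 UMIs its fitted size is not given. Adamts15 was lower (-1.88 ± 0.28, adjusted p = 7.71e-06), and the other 3 tested missed the threshold. Tnxb, the tenascin of resting connective tissue, had the lowest value of the list, at 88.1, 84.8 and 47.5 CPM in the RZ and 11.02, 8.50 and 11.6 CPM in the IZ (-3.15 ± 0.20, adjusted p = 3.48e-11), opposite in direction to Tnc. Without the section labelled male the count of genes called higher was 12, and none of the 8 genes named here lost its call without any 1 section.

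Between fibroblast-rich and macrophage-rich spots, 10 of 36 tested list genes were higher and 6 lower, against 13.7% and 11.4% of all genes tested. With DESeq2 5 were higher, and without the section as a block 1 was higher and 3 were lower. Of the genes given below with a log2 fold change, Habp4 (adjusted p = 0.146) and Ptx3 (0.0610) lost their calls with DESeq2. Both of these, Acan (0.338) and Tgm2 (0.0616) lost them in edgeR's test without the block. The receptors of fibronectin and tenascin had 5 of 9 higher (Itga5, Itgb1, Itga9, Sdc1 and Sdc2) and 2 lower (Itga4 and Sdc3). As 1 list gene in all was called higher without the block, at most 1 of these 5 kept its call there. Acan (1.71 ± 0.21, edgeR adjusted p = 3.41e-06) and Tgm2, a transglutaminase that cross-links fibronectin (0.97 ± 0.09, adjusted p = 1.23e-07), were higher in 3 of 3 sections, as was the tenascin receptor subunit Itga9 (0.65 ± 0.13, adjusted p = 0.00079). Habp4 was called at 0.54 ± 0.16, a call lost without any 1 of the 3 sections (adjusted p 0.0523 to 0.0977). F13a1, the clotting transglutaminase carried by macrophages, was lower (-1.40 ± 0.16, adjusted p = 7.97e-07), as were Itga4, an integrin subunit of leukocytes (-1.34 ± 0.28, adjusted p = 0.000973), and Stab1, a scavenger receptor of macrophages that takes up hyaluronan (-0.98 ± 0.08, adjusted p = 1.14e-08). Ptx3, whose product joins TNFAIP6 in hyaluronan cross-linking, was lower as well (-0.99 ± 0.26, adjusted p = 0.00786), opposite to Tnfaip6, and its call was lost without either 5 dpi section (0.0647 and 0.0878). With ranking within classes of muscle RNA the calls of Itga9 (adjusted p = 0.0685), Habp4 (0.865) and Ptx3 (0.555) were lost. Without the 5 dpi section labelled female the count of genes called higher was 4. Near the surface only F13a1 (1.26) and Acan (1.53) were called of 38 tested, named after their values were seen, and both were lower there in the section labelled male.

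Which genes ran with each member inside the infarct was described over square tiles of at least 10 IZ spots, 34, 40 and 24 in the 3 sections. The measure was the Spearman correlation of log2(CPM + 1), averaged over the sections, among 2636 or 2637 genes of at least 50 CPM in each IZ. Tiles of 1 section share library and depth, so the values carry no p. Fn1 went most with Col1a2 (0.68), Col1a1 (0.67) and Aebp1 (0.65), genes of fibrillar collagen and its assembly, and 99% of genes were below 0.46. Tnc went most with Loxl2 (0.57), a collagen cross-linking oxidase, Timp1 (0.57), a protease inhibitor, and Serpinh1 (0.52), a collagen chaperone. Serpinh1 led for Cemip (0.63), followed by Acta2, the actin of smooth muscle and myofibroblasts (0.55), and Swi5 (0.51), though at 3 dpi, with few Cemip UMIs, the values were 0.34, 0.15 and 0.31.

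Cd44 had the highest values of any member and the highest background, since 99% of genes were below 0.65 for Cd44 and below 0.33 to 0.46 for the other 6 tested. Its nearest genes were the chemokines Ccl9 (0.78) and Ccl6 (0.77) and the translation factor Eif4a1 (0.75), each between 0.66 and 0.89 in every section. It correlated at 0.63 with the neutrophil list, at -0.70 with the cardiomyocyte list and at -0.58 with the mural list. Sdc4 went with Adam15 (0.50), Ccl9 (0.49) and Il4ra (0.44), so that it shared a gene with Cd44. Tnfaip6 went with Timp1 (0.52), Itga5 (0.46), the alpha subunit of the main fibronectin receptor, and Ncl (0.42), and shared Timp1 with Tnc. For Vcan the nearest genes reached 0.42 to 0.46 (Bin1, Sec13 and Mlec), and Has1 and Has2 had too few UMIs for a reading.

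The highest correlation among the 7 was 0.39, between Tnc and Cd44, and it came from the 5 dpi sections (0.61 and 0.58, against -0.014 at 3 dpi). It lay near the value below which 99% of genes stayed for Tnc (0.41), and that of Tnfaip6 with Cd44 (0.37) lay above the value for Tnfaip6 (0.36). Both lay well under the value for Cd44 (0.65). The lowest was -0.087, between Tnc and Sdc4, which stood at -0.53 at 3 dpi. Fn1 went with the fibroblast list (0.60), at 0.37, 0.65 and 0.78 in the 3 sections. At 3 dpi its values with the macrophage list (0.50) and the neutrophil list (0.50) were higher than that. Tnc had no shared direction with the fibroblast list, at 0.038, 0.31 and -0.28 in the 3 sections. It ran against the macrophage list in each (-0.49, -0.14 and -0.33). These values describe tiles whose muscle content also varied.

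**Figure D4:**
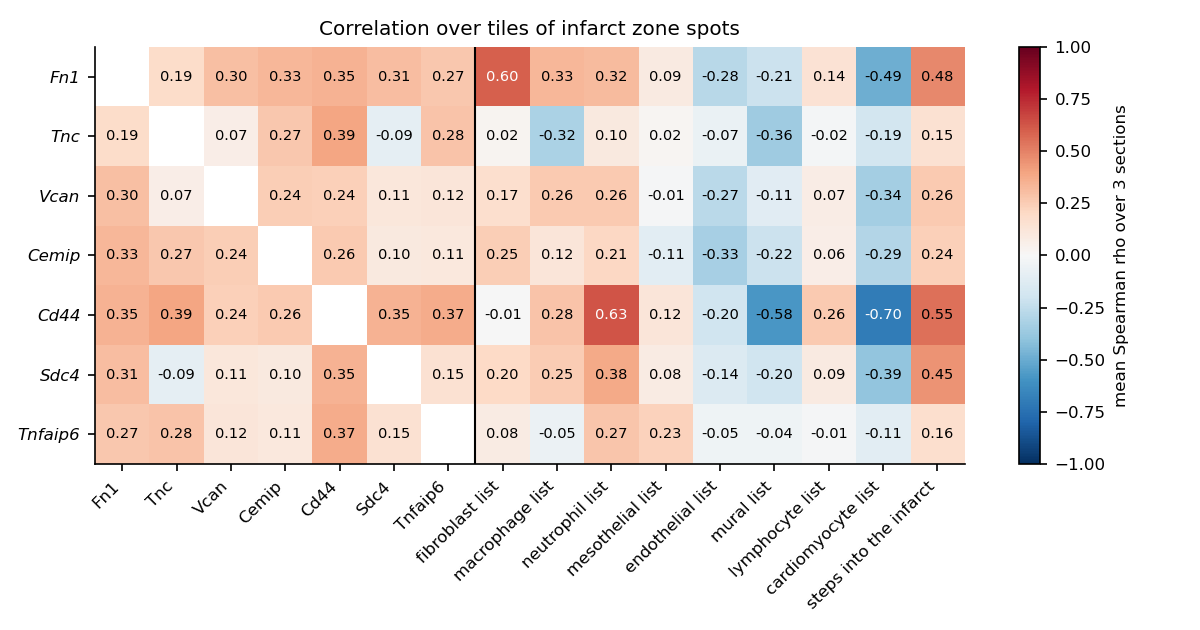
Mean Spearman correlation over the 3 infarcted sections, from tiles of IZ spots, of each of 7 members (rows) with the other members, the summed marker lists and the distance into the infarct (columns). Fn1 goes with the fibroblast list (0.60) and Cd44 with the neutrophil list (0.63) and against the cardiomyocyte list (-0.70), while the highest value of a pair of members is 0.39.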

How the data were processed

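Spatial RNA-seq was measured in 4 sections. The authors deposited raw UMI counts per gene and spot, made with Space Ranger 1.3.1 on an Ensembl-based mouse reference with an added GFP sequence; the labels name build mm10. No normalization had been applied, and spots under tissue were marked by hand. Marked spots with at least 500 UMIs, 250 genes and at most 50% mitochondrial UMIs were kept (6250183 to 11010109 UMIs per section). Barcodes mark array positions, and 446 to 1165 were shared between pairs of sections. A spot was low in muscle RNA when the share of 12 cardiomyocyte genes was under 0.5 times the section's 90th percentile, and low patches of at least 10 spots formed the IZ. UMIs were summed per class and section and compared in R 4.3.3 with the quasi-likelihood test of edgeR 4.0.16 (TMM scaling, default filter, section as a block, adjusted p under 0.05). The 15 genes that define the fibroblast and macrophage ranking were left out of its calls. Standard errors of fitted log2 fold changes were taken as the fold change over the root of its F statistic. The limma version was 3.58.1. DESeq2 1.42.0 and other settings were alternatives. Levels and figures used Matplotlib 3.10.9, pandas 2.3.3, SciPy 1.17.1 and NumPy 2.4.6 under Python 3.11.15. The test was checked on simulated data. Named genes were all members, the 4 highest and 4 lowest list genes called with the same direction in 3 of 3 sections in each comparison, and the 3 genes most like each member. Members and lists were chosen with earlier results of these data known. Of 60 list genes, 59 are in the matrices.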

Additional observations from a re-analysis of the deposited data

Results flagged for a closer look

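In the 5 dpi section labelled male, 623 spots of the matrix are not marked as tissue and were used in no comparison, and 560 of them passed the filter on counts. Of the 9 members, 8 had an interval that lay wholly above the upper limit of the control section there: Fn1 at 3959 CPM (3876 to 4042), Tnc at 478 CPM (449 to 507), Vcan at 79.7 CPM, Has1 at 3.17 CPM on 7 UMIs (1.27 to 6.53), Cemip at 78.3 CPM, Cd44 at 172 CPM (155 to 190), Sdc4 at 59.3 CPM and Tnfaip6 at 66.1 CPM (55.8 to 77.7). Has2, at 1.81 CPM on 4 UMIs (0.494 to 4.64), reached below the control's upper limit of 0.986 CPM. In the marked IZ of the same section Tnfaip6 stood at 17.8 CPM, Cd44 at 102 CPM, Tnc at 328 CPM and Has1 at 0.620 CPM, all lower, while Fn1 (4660 CPM) and Cemip (114 CPM) were higher. The mesothelial list summed to 104.6 CPM in the unmarked spots and 19.6 CPM in the marked IZ, and the cardiomyocyte list to 17019 and 8676 CPM. The fibroblast (15507 and 19079 CPM), macrophage (5964 and 10612 CPM) and neutrophil (172 and 225 CPM) lists were lower in the unmarked spots. The part of these markers was not tested.

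Tnfaip6 differed in direction between time points in the comparison of fibroblast-rich with macrophage-rich spots, with a log2 ratio of -0.095 at 3 dpi, from 34 and 33 UMIs, and of 1.03 and 1.08 in the 5 dpi sections. The difference between the time points was not tested, and 3 dpi has 1 section.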

How the results depend on the processing

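Has1 and Has2 did not pass the filter on low counts, so depth limited what could be tested of them. The median log2 ratio of IZ over RZ over 7 members, 2.51, was 3.06 over all UMIs and 1.93 with the stricter infarct limit. Between IZ and RZ, list genes called higher ranged from 12 to 16 and lower from 8 to 9 without 1 section, and all genes called from 4164 to 4624.

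For fibroblast-rich against macrophage-rich spots, members called higher and lower were 2 (Fn1 and Tnc) and 0 with DESeq2 and 0 and 0 without the block for the section, list genes called were 5 higher with DESeq2 and 1 higher and 3 lower without the block, and all genes called were 1450 and 782 in place of 2695. Members called lower were 0 with the stricter limit, with 2 classes in place of 3 and, in settings chosen after seeing the data, with ranking within distance classes and within classes of muscle RNA (1477 genes called). With equal weights 6 list genes were higher, and Cemip turned to -0.027. Without 1 section, 2 to 4 members were higher and 0 to 1 lower, 4 to 7 list genes were higher and 4 to 6 lower, and 1716 to 2291 genes were called. Tnc lost its call only without the block (adjusted p = 0.108), and Fn1 there (0.793) and with 2 classes (0.0831).

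For surface against inner spots, 1 member and 2 list genes were higher and 243 genes called. These were 0, 0 and 93 with DESeq2, 0, 0 and 3 without the block, and 0, 0 and 0 with all tissue edges. With no filter 4 list genes were higher, 1 lower and 536 genes called, and with the stricter limit 1 list gene was lower and 383 genes called. Members called were 2 with surface as 0 steps. In settings chosen after seeing the data they were 3 with the edge from marked tissue (5 list genes higher, 1 lower, 766 genes) and 0 without mesothelial spots (108 genes). Without 1 section, 0 to 2 members and 0 to 5 list genes were higher, 0 were lower, and 6 (without the section labelled female) to 640 (without that labelled male) genes were called. Of single gene values under all settings, 292 kept direction and side of the threshold, 41 fell below it, 4 passed it and 1 turned.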
